A study of Manacus vitellinus and Taeniopygia guttata with 24 samples.

Results

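Androgen action was lowered with a drug in testosterone-treated zebra finches, and messenger RNA of a wing muscle was compared between drug-treated and drug-free birds. The muscle was the SH, the scapulohumeralis caudalis of the shoulder, which pulls the wing back. The flutamide group (titles -ARS1 to -ARS3) consisted of 3 male birds that were given an implant of flutamide, an antiandrogen, and then an implant of testosterone. The T-only group (titles +ARS1 to +ARS3) consisted of 3 male birds that were given a blank implant and then testosterone. All 6 birds therefore carried testosterone, and they differed in flutamide. The 6 SH libraries were chosen by title from the 24 libraries of the series. The titles mark them only with a plus or a minus, the order of implants comes from the labels' treatment protocol, and the sample characteristics instead describe the minus birds as lacking testosterone. The labels give no age, dose or duration, and no strain of bird. The pectoralis (PEC), the main downstroke muscle, was sequenced from the same birds, and the SH of golden-collared manakins from 3 birds with a blank implant and 3 with testosterone. These further libraries are used only to show where finch SH differed.

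Testosterone acts on muscle largely through the androgen receptor, a transcription factor of the nuclear receptor family that binds DNA once it holds its ligand. Flutamide occupies the ligand pocket of that receptor, through its active metabolite in mammals, and so keeps androgens from activating it. Skeletal muscle expresses the receptor, and in vertebrates androgens are known to promote muscle mass and to act on nerve and connective tissue within the muscle as well. In bulk muscle, fewer cells of a type and less RNA per cell cannot be told apart.

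Expression was deposited as RPKM (reads normalised to gene length and library size), and a gene missing from a library's list was read as 0. The SH libraries held 15800344 to 16244120 reads in flutamide and 14341212 to 21024536 in T-only. By reads recovered from the RPKM values, which can be too low for a gene, 66.62% to 70.22% and 64.5% to 67.25% fell in genes. Of 13480 genes listed in at least 1 SH library, 9184 reached 1 RPKM in 3 or more of them and were tested. Genes carry Ensembl identifiers that the files do not pair with names. The reference table at hand was for Manacus vitellinus and held no Ensembl identifiers, so none of the finch identifiers could be matched (0 of 13920). For that reason at most 2 identifiers a direction are given in each comparison, without a name or role, and neither the androgen receptor nor markers of muscle or other cell types could be looked up. The tissue label was not checked against markers.

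Flutamide SH was marked by lower levels of many transcripts, mostly of low and middle abundance as were most genes tested. Of 9184 genes, 426 were called at a limma adjusted p below 0.05 (4.64%). In flutamide 422 of them were lower than in T-only (4.59% of the genes tested) and 4 were higher (0.0436%). The 422 genes had a median mean level of 1.99 RPKM in flutamide and 9.67 RPKM in T-only, and the median ratio of T-only over flutamide was 4.61 over the 414 genes listed in at least 1 flutamide library. Their log2 differences, flutamide minus T-only on log2(RPKM + 1), had a median of -1.61 and quartiles of -2 and -1.31, against a median of -0.21 over all genes tested. A difference of -1 or less was found in 410 of them, of -2 or less in 106 and of -3 or less in 10. In flutamide, 137 of the 422 averaged under 1 RPKM and 8 were listed in no library. Genes that low in flutamide needed the T-only libraries to pass the filter, so these 2 counts are descriptions. The calls of these genes, which are part of the 422, carry the same limit.

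**Figure D1:**
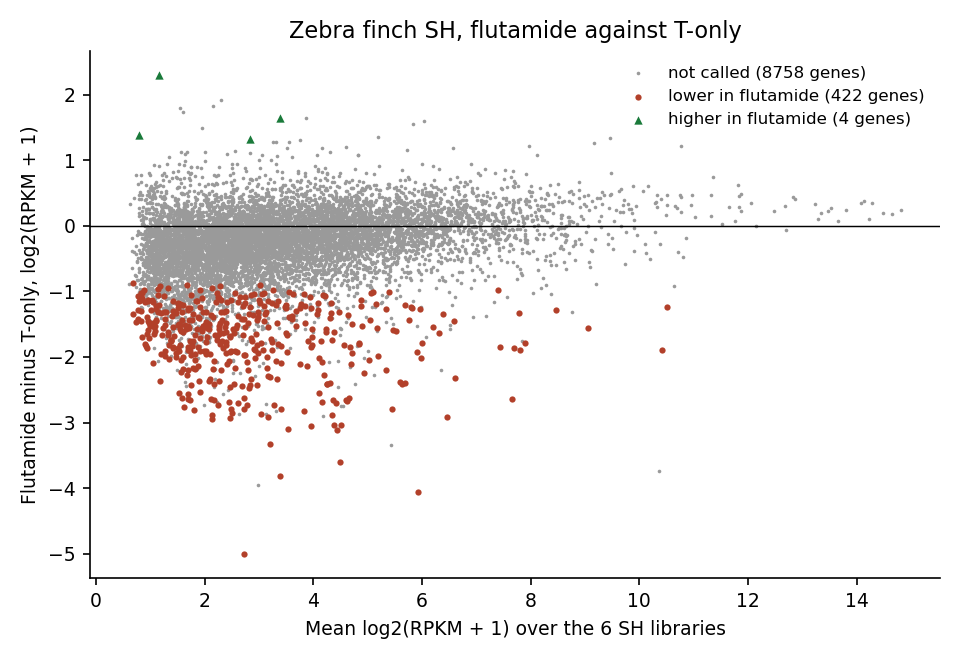
Difference between flutamide and T-only SH (vertical axis, log2(RPKM + 1)) against the mean level over the 6 SH libraries (horizontal axis, log2(RPKM + 1)), 1 point for each of the 9184 genes tested. The 422 genes called lower in flutamide lie mostly at low and middle levels, as do all genes tested. A mean of 100 RPKM or more was reached by 3.55% of the 422 and 6.81% of all tested. The 4 genes called higher are triangles.

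The number of calls changed with the libraries kept and with scaling. A fit without 1 library also holds fewer birds, and the part of this in the changes was not tested. When 1 flutamide library was left out, calls in both directions numbered 175 without library 1, 0 without library 2 and 3 without library 3. Leaving out a T-only library gave 20 calls for library 1, 143 for library 2 and 629 for library 3. Of the 426 called genes, 45 kept their call in 0 of these 6 fits and 216 in 1. A further 90 kept it in 2, 59 in 3, 15 in 4, 1 in 5 and 0 in 6. With median-ratio scaling, which divides each library by 1 constant, the median difference over all genes tested was 0.04 in place of -0.21. With it 152 genes were called lower (1.66%) and 12 higher (0.131%), and with quantile scaling 38 and 7. Of the 422 genes, 152 were called with median-ratio scaling. No gene was called when every listed gene was tested (limma, smallest adjusted p = 0.0542, 2587 genes below an unadjusted p of 0.05), while limma-voom on recovered reads called 513 lower and 6 higher.

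**Figure D2:**
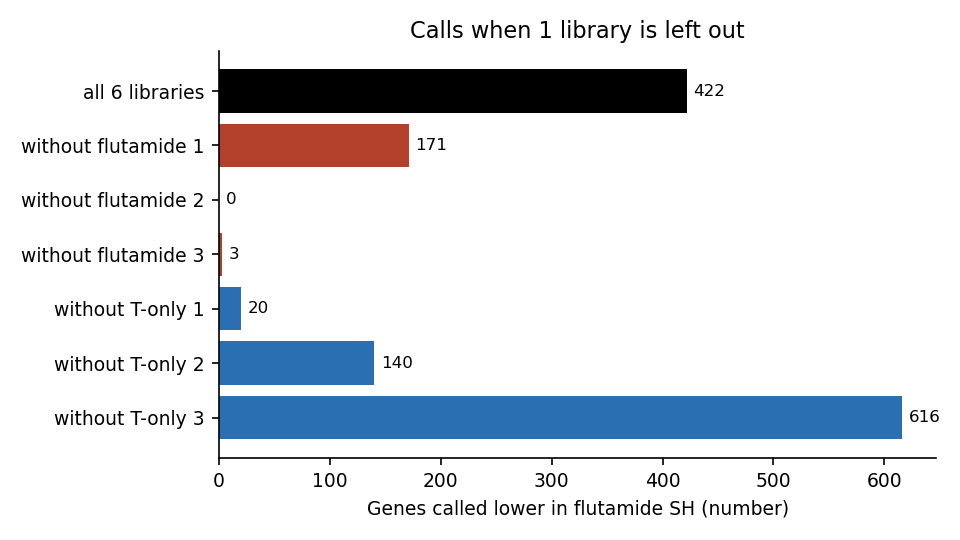
Number of genes called lower in flutamide SH (horizontal axis) with all 6 libraries and with each library left out in turn (rows). The count is 422 with all libraries, and goes from 0 without the flutamide library 2 to 616 without the T-only library 3.

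The gene that kept its call most often when 1 library was left out was ENSTGUG00000000398. It was at 1.65, 1.4 and 2.87 RPKM in the flutamide birds, against 36.3, 22.3 and 27.3 RPKM in the T-only birds. Every T-only bird was far above every flutamide bird, though groups without overlap were a condition for naming a gene. The ratio of the T-only mean to the flutamide mean was 14.5. The log2 difference was -3.32 ± 0.28 (SE, limma adjusted p = 0.017, n = 3 each), with 11 to 22 reads behind each flutamide value and 190 to 371 behind each T-only value. The call held in 5 of 6 fits with 1 library left out, the exception being the flutamide library 2 (adjusted p = 0.0616), and it was lost when every listed gene was tested (0.0542). The naming rule ranked genes by the number of these fits, so that number describes the choice.

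ENSTGUG00000018460 was nearly silent under flutamide, at 0, 0.559 and 0 RPKM, against 124, 14.3 and 25.9 RPKM in the T-only birds. These values came from 0, 7 and 0 reads in flutamide and 2016, 200 and 288 reads in T-only. The T-only birds also differed among themselves, the first being several times above the others. The log2 difference was -5.0 ± 0.68 (SE, limma adjusted p = 0.0203, n = 3 each). No flutamide library reached 1 RPKM, so the gene passed the filter only through the T-only libraries, in which it was high. The difference and its adjusted p are therefore descriptions. The call was lost in 4 of 16 alternatives, among them limma-voom (adjusted p = 0.114) and leaving out the flutamide library 2 (0.0915) or 3 (0.0917).

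Of the genes that were higher under flutamide, ENSTGUG00000012446 was at 27, 14.4 and 13.9 RPKM in flutamide, against 5.19, 4.4 and 5.26 RPKM in T-only. The T-only birds lay close together and every flutamide bird was above them, as the naming rule required. The ratio of flutamide over T-only means was 3.73. The log2 difference was 1.65 ± 0.28 (SE, limma adjusted p = 0.0259, n = 3 each). It lost its call in 5 of 16 alternatives, with an adjusted p of up to 0.0935, including without the flutamide library 2 or 3 and without the T-only library 1 or 2.

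ENSTGUG00000017703 was at 11.1, 11.1 and 8.9 RPKM in flutamide and 4.46, 4.32 and 2.18 RPKM in T-only. The log2 difference was 1.32 ± 0.27 (SE, limma adjusted p = 0.037, n = 3 each). Its values rest on few recovered reads, 23, 23 and 18 in flutamide against 12, 10 and 4 in T-only. The recovered length was 128 bases. The call was lost in 9 of 16 alternatives, with an adjusted p of 0.264 by limma-voom. The other 2 genes called higher were at 1.05 to 6.53 RPKM in the flutamide libraries, against 0 to 0.236 RPKM in the T-only libraries, and 1 of them was listed in no T-only library. Both passed the filter only through the flutamide libraries, in which they were high, so their values and calls are descriptions.

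**Figure D3:**
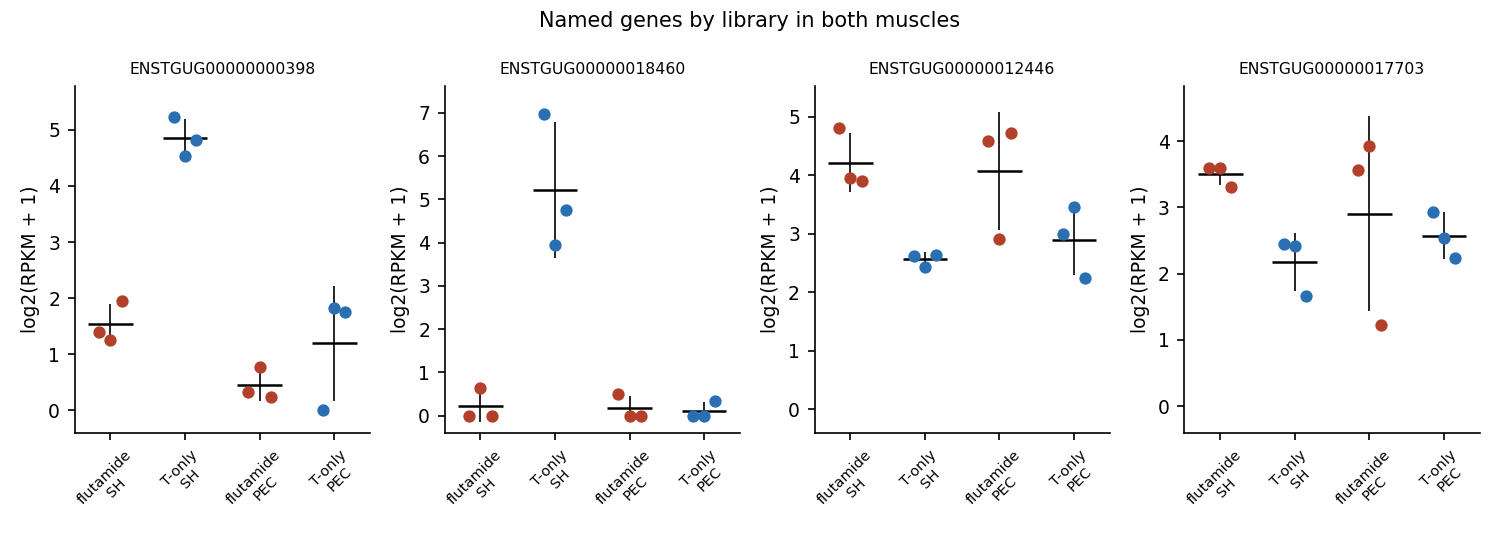
Level of the 4 named genes (vertical axes, log2(RPKM + 1)) in each library of SH and PEC, flutamide left of T-only, with the mean (horizontal bar) and SD (vertical bar) of 3 birds. In SH the flutamide birds lie below all T-only birds in the first 2 panels and above them in the last 2, which the naming rule required. In PEC, which had no part in the choice, the groups overlap in all 4 panels. The choice favours separated groups in SH. The contrast between the muscles is therefore a description, and the part of the choice in it was not tested.

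The difference ran along the level of the genes. Among 1168 genes averaging under 2 RPKM over the 6 libraries, the median log2 difference was -0.36, and 59 genes were called lower and 1 higher. Among 2175 genes of 2 to 5 RPKM it was -0.36, with 127 called lower and 1 higher. The median was -0.15 in the 2871 genes of 10 to 50 RPKM, of which 109 were called lower and 1 higher. Among 504 genes of 100 to 500 RPKM it was 0.06, with 12 called lower and 0 higher, and among the 121 genes of 500 RPKM or more it was 0.24, with 3 called lower and 0 higher. Low transcripts were thus lower in flutamide on average and the most abundant ones higher, as levels relative to library size. The part of the most abundant genes in the lower relative levels of other genes was not tested. Of the 20 most abundant genes, 19 averaged higher in flutamide and 0 were called.

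With median-ratio scaling the medians were -0.2 under 2 RPKM and 0.54 at 500 RPKM or more. That scaling divides each library by 1 constant, so it could not have removed the slope, and its persistence is no result. Quantile scaling, which gives every library the same distribution of values, left medians of 0.06 to 0.11 in all classes. It evens out such a slope by design, so this flatness is no result either. Over all genes tested, 69.6% averaged lower in flutamide as deposited and 46.8% with median-ratio scaling. In 2158 genes every flutamide bird was below every T-only bird (23.5%) and in 353 every one was above (3.84%), while 1297 genes were below and 1184 above with median-ratio scaling. Median-ratio scaling centres the genes near 0, so a near-even balance of directions over all genes is set by that scaling and is no result.

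**Figure D4:**
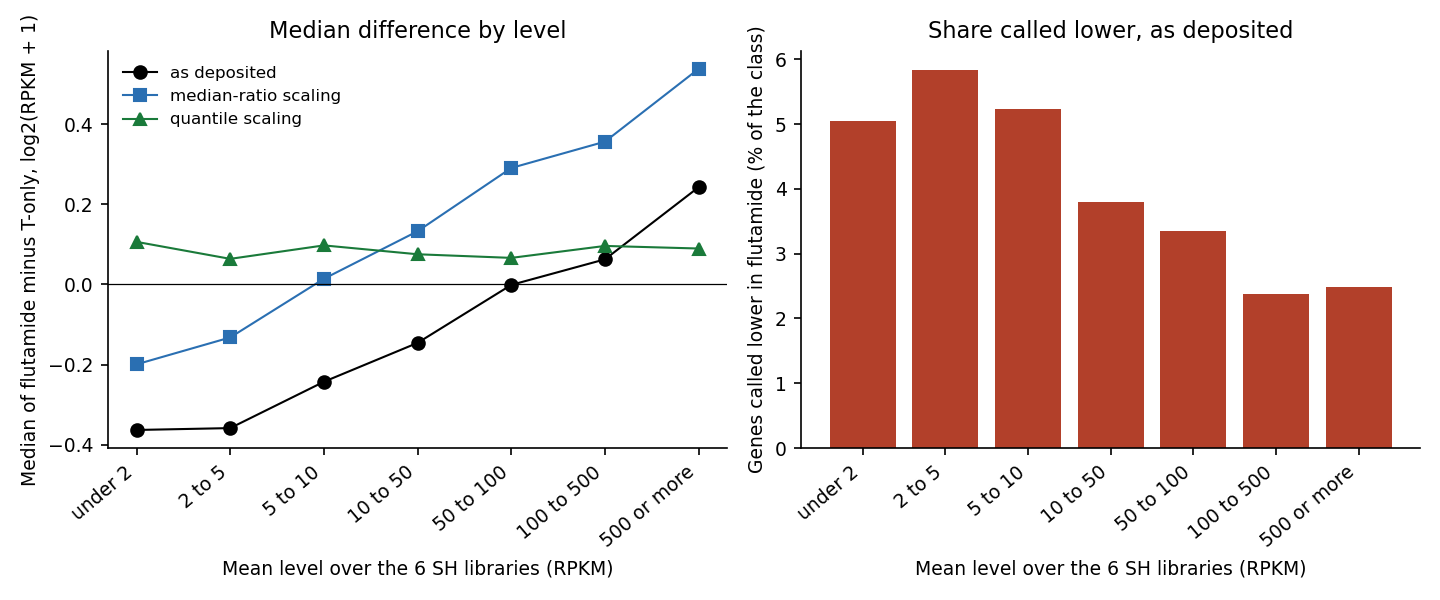
Median difference between flutamide and T-only SH on log2(RPKM + 1) (left, as deposited and with 2 other scalings) and share of genes called lower in flutamide (right, percent of the class), by mean level over the 6 SH libraries in RPKM. As deposited, the median goes from -0.36 under 2 RPKM to 0.24 at 500 RPKM or more, and the share called lower from 5.05% to 2.48%.

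Flutamide libraries listed 11193, 11358 and 11480 genes, against 12068, 12109 and 11533 in T-only libraries. At 1 RPKM or more the flutamide libraries held 8519, 8527 and 8515 genes and the T-only libraries 9735, 9439 and 9096. On both counts every flutamide library was below every T-only library, and the flutamide birds were nearly identical in the latter count (exact permutation test, two-sided p = 0.1 for each, the smallest that 3 birds against 3 can give, adjusted p = 0.2 over 5 library measures). The 20 most abundant genes took 48.5%, 41.2% and 47.7% of RPKM in flutamide and 37.3%, 39.9% and 45.8% in T-only, and these ranges overlapped (exact permutation p = 0.2, adjusted p = 0.2). The share of reads in genes overlapped too, the flutamide library 2 at 66.62% being below the T-only library 3 at 67.25%. The part of depth and of reads outside genes in the calls was not tested.

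Some genes reached 1 RPKM in one group and not in the other. In 5 genes all flutamide libraries reached 1 RPKM and no T-only library did (0.0544% of the 9184 tested), and in 231 genes all T-only libraries reached it and no flutamide library did (2.52%). These genes passed the filter only through the group in which they were high, so the counts are descriptions. Counting a gene as present when listed at all, 10 genes were listed in every flutamide and in no T-only SH library. In the other direction, 109 were listed in every T-only and in no flutamide library. These were 0.0742% and 0.809% of the 13480 genes listed in at least 1 SH library. Most of these were low: 1 of the 10 was at 1 RPKM or more in every flutamide library, and 8 of the 109 in every T-only library.

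The genes called lower were a small share of the RNA. They took 0.818%, 0.795% and 0.702% of RPKM in the flutamide libraries, against 3.79%, 2.64% and 2.36% in the T-only libraries. A mean level of 100 RPKM or more was reached by 15 of the 422 (3.55%), against 6.81% of all genes tested. A mean below 5 RPKM was found in 44.1% of them, against 36.4% of all tested. Their recovered lengths had a median of 1134 bases, against 1293 bases over all genes tested. These values describe genes picked by the same libraries. The groups of all 426 called genes did not overlap. Over all genes tested, 23.5% were lower in flutamide without overlap and 3.84% higher. With 3 birds a group a call favours separated groups, so this too describes the choice.

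Birds of a group were not equally far from the other group. Across the tested genes, which are not independent replicates, log2(RPKM + 1) correlated at 0.954 to 0.963 between flutamide libraries and at 0.944 to 0.948 between T-only libraries. The T-only library 1 correlated with the flutamide libraries at 0.907 to 0.92, and the T-only library 3 at 0.934 to 0.948, about as high as with its own group. Of the 422 genes called lower, 289 had their highest T-only value in library 1, 83 in library 2 and 50 in library 3. The median level of these genes, as log2(RPKM + 1), was 1.71, 1.42 and 1.58 in the flutamide libraries and 3.74, 3.25 and 3.08 in the T-only libraries. Over all genes tested these medians were 2.96, 3.03 and 2.95 in flutamide and 3.44, 3.32 and 3.14 in T-only, so the T-only library 1 was highest there as well. The median SD of a gene among birds was 0.28 in flutamide and 0.3 in T-only over all genes. For the genes called lower it was 0.27 in flutamide and 0.42 in T-only. Adding 1 RPKM before the logarithm compresses the spread of low values, and 137 of these 422 genes averaged under 1 RPKM in flutamide. These 2 SDs are therefore not directly comparable.

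The PEC of the same birds was examined to ask whether the difference was particular to SH. No gene was called between flutamide and T-only PEC among the 9184 genes tested in SH (0%), with 408 below an unadjusted p of 0.05 by limma and 395 by limma-voom, which called 0 as well. Of the 422 genes called lower in flutamide SH, 356 averaged lower in flutamide PEC too (84.4%), against 57.7% of all genes tested, and their median log2 difference there was -0.38, against -0.06 over all genes. In 93 of the 422 every flutamide PEC library was below every T-only PEC library (22%), against 5.13% of all genes. Both muscles came from the same 6 birds, and the deviations of a bird from its group mean correlated at 0.29 to 0.379 between its muscles, so PEC is not an independent repeat of the SH comparison.

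The test of the difference between the muscles called 0 genes (limma, 720 below an unadjusted p of 0.05). With the bird as a block it called 0 as well, with 966 below an unadjusted p of 0.05 and no adjusted p under 0.0819. A difference in response between SH and PEC was thus not shown for any gene. Libraries were left out without the block, in a fit that treats both muscles of a bird as independent. Leaving out the SH T-only library 1, 2 or 3 then gave 1, 3 or 9 called genes. Leaving out the PEC flutamide library 1 gave 1. In the fit of all libraries without the block, ENSTGUG00000018460 came closest to a call. It was at 0.405, 0 and 0 RPKM in flutamide PEC and 0, 0 and 0.262 RPKM in T-only PEC. Its SH difference exceeded its PEC difference by -5.05 (limma adjusted p = 0.132). ENSTGUG00000000398 was at 0.258, 0.703 and 0.175 RPKM in flutamide PEC and 0, 2.55 and 2.37 RPKM in T-only PEC. Both genes had their highest values in T-only SH among the 4 finch groups.

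ENSTGUG00000012446 was higher with flutamide in SH and had similar values in PEC, at 23, 6.57 and 25.6 RPKM in flutamide and 7.02, 10 and 3.76 RPKM in T-only. The PEC groups overlapped through the flutamide bird 2, and the PEC difference of 1.18 was not called (limma adjusted p = 1).

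Manakin SH came from birds other than those of the finch libraries. The treatments also differ: lowered androgen action in manakins means a blank implant in place of testosterone. Zebra finch identifiers were used for manakin reads as well, and 291 of the 422 genes called lower in flutamide finch SH were also measured well enough in manakin SH to be tested. Of these, 158 averaged lower in blank than in testosterone manakins (54.3%), against 56.8% of the 6920 genes tested in both. Their median log2 difference, blank minus testosterone, was -0.1, against -0.09 over all 6920 genes. On both measures the genes called in finch SH lay close to all genes in manakin SH. They were spread more widely there, with quartiles of -0.63 and 0.4 against -0.44 and 0.26 over all 6920 genes.

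**Figure D5:**
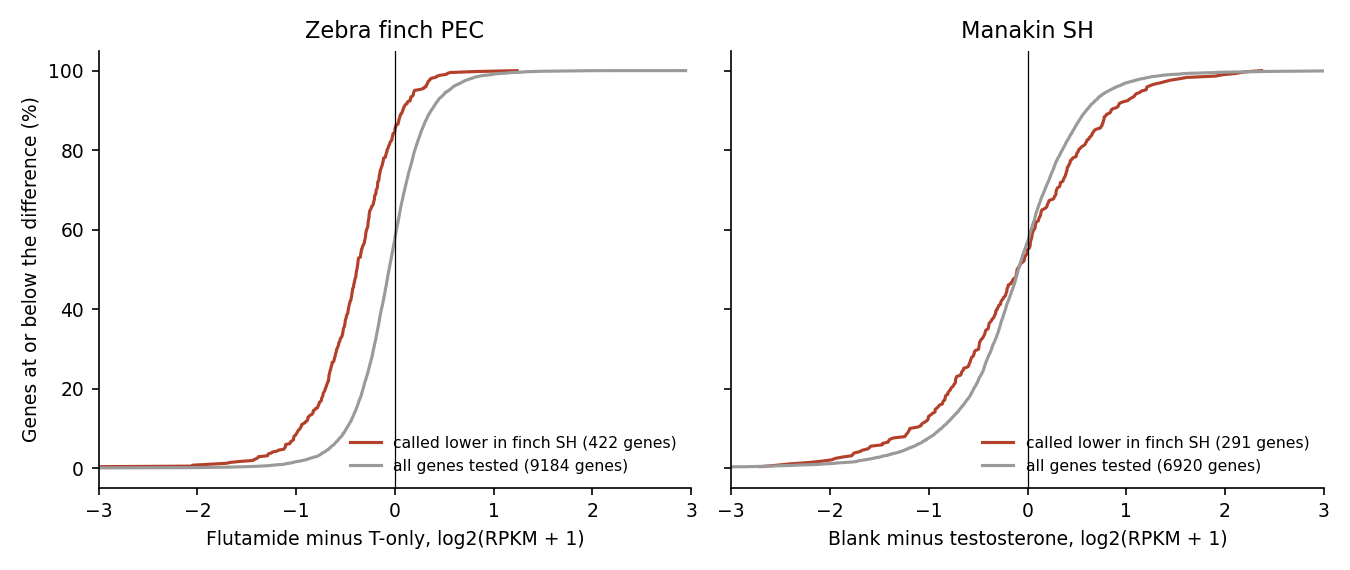
Cumulative share of genes (vertical axis, percent) by their difference in finch PEC (left, flutamide minus T-only) and in manakin SH (right, blank minus testosterone), both on log2(RPKM + 1), for the genes called lower in flutamide finch SH and for all genes tested. The called genes lie to the left of all genes in finch PEC, with medians of -0.38 and -0.06, and close to them in manakin SH, with medians of -0.1 and -0.09.

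The difference between the species was itself called in 18 of 6920 genes (0.26%), of which 17 were more negative in finch (0.246%) and 1 more positive (0.0145%). In 16 of the 18 the level was lower in flutamide than in T-only finches and higher in blank than in testosterone manakins, as in 28.7% of all 6920 genes, and 12 of the 18 were among the genes called lower in flutamide finch SH, as were 291 of the 6920. Choosing genes by this difference of differences favours such opposite directions, so these counts describe the choice. ENSTGUG00000000398, the gene with the steadiest call in finch SH, was at 22.8, 20.7 and 12.1 RPKM in blank manakins, against 5.49, 1.33 and 7.55 RPKM in testosterone manakins. Its direction was thus opposite to that in the finch, and the difference of differences was -5.23 (limma adjusted p = 0.0165, called in 10 of 12 fits with 1 library left out). Genes of this comparison were ranked for naming by the number of such fits, so that number describes the choice too. ENSTGUG00000007319 was at 5.68, 5.28 and 2.27 RPKM in flutamide finches, against 10.7, 19.6 and 19.4 RPKM in T-only finches. In blank manakins it was at 5.13, 7.41 and 3.04 RPKM, against 0.702, 0 and 0.285 RPKM in testosterone manakins, and the difference of differences was -3.91 (limma adjusted p = 0.0337, called in 8 of 12 such fits). The difference of this gene within finch SH, -1.72 (limma adjusted p = 0.03965), stayed called in 0 of 6 fits with 1 library left out.

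The single gene more positive in finch was ENSTGUG00000008853. It was at 14.8, 51.9 and 19.3 RPKM in flutamide finches, against 6.34, 6.44 and 9.18 RPKM in T-only finches. In blank manakins it was at 4.12, 1.18 and 16.3 RPKM, against 402, 70.2 and 83.5 RPKM in testosterone manakins (difference of differences 6.18, limma adjusted p = 0.0467, called in 2 of 12 fits with 1 library left out). Its difference within finch SH, 1.64, was not called (limma adjusted p = 0.0708). In finch PEC it was at 32.2, 94.2 and 128 RPKM in flutamide and 4.88, 4.91 and 24.7 RPKM in T-only. The finch PEC difference, 2.94, was not called either (limma adjusted p = 0.852). The count of 18 was 0 by limma-voom (948 genes below an unadjusted p of 0.05), 628 with array weights, and between 0 and 43 with 1 library left out, the extremes being the finch T-only library 2 or the manakin blank library 2 (0 each) and the manakin blank library 3 (43). The manakin testosterone library 2 stood apart with 87.19% of its reads in genes, against 73.17% to 79.63% in the other manakin SH libraries, and without it 39 genes were called.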

How the data were processed

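RPKM values were deposited by the authors as 1 list of genes above 0 for each library, with Ensembl release 68 identifiers, per the file headers. CASAVA, cutadapt and Bowtie 0.12.9 are named in the submitters' processing notes, without role or order. The build and the counting of reads are not given in the sources used here.

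Reads, library totals and gene lengths were solved for from the RPKM values of the 12 finch and 6 manakin SH libraries. Whole reads, to a relative tolerance of 3e-13, were obtained for 136090 of 136090 finch and 58058 of 58058 manakin values. A length can be recovered at a fraction of its true size, and the reads of that gene are then given at the same fraction. The read numbers, limma-voom and the shares of reads in genes use these reads. Both steps were tested on simulated data. Replicate pairs of SH differed by a chi-square of 49.9 to 82.7 per degree of freedom over genes with at least 20 reads, so none was taken as a repeated library. Replicates were taken as separate birds from the titles and from bird codes in the names of the deposited files, which both muscles of a bird share. The deviations of same-numbered SH and PEC libraries correlated at 0.29 to 0.379.

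Tests used limma 3.58.1 (R 4.3.3) on log2(RPKM + 1), which understates the change of low genes, with Benjamini-Hochberg adjustment over all genes at 1 RPKM or more in 3 or more SH libraries. SH and PEC fits held 6 libraries, interactions 12. Calls needed an adjusted p below 0.05. The named genes were, in each direction, the first 2 called genes without overlap and with a mean of 10 RPKM or more in the higher group, ranked by calls kept with 1 library left out and then by difference. For the species comparison, no overlap in 1 of the species sufficed. The filter on genes, the libraries compared and the naming rule were chosen with earlier results of these data known. The 15 gene lists set up could not be used without names. Alternatives were other pseudocounts (0.1), filters (none, 5 RPKM), scalings, limma-voom, limma-trend, array weights, replicate blocks and leaving out libraries. Python 3.11.15, numpy 2.4.6, pandas 2.3.3, scipy 1.17.1 and matplotlib 3.10.9 were used for the rest.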

Additional observations from a re-analysis of the deposited data

Results flagged for a closer look

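The difference between androgen states in SH differed between the species in 18 genes by the limma interaction test, 17 of them more negative in finch. The treatments compared are not alike, a drug in finches and a blank implant in manakins, and the count was 0 by limma-voom.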

How the results depend on the processing

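With 3 birds a group, counts of calls moved widely. In finch SH 426 genes were called, against 188 with a pseudocount of 0.1, 0 with no filter, 277 with the stricter filter, 164 with median-ratio and 45 with quantile scaling, 681 with array weights and 666 when all 12 finch libraries were fitted. The fit of 12 libraries treats both muscles of a bird as independent. Leaving out 1 library gave 0 to 629. The replicate block, a number that pairs no birds in SH (same-numbered deviations correlated at -0.0926 to 0.0426), gave 429. The median difference over all genes, -0.21, became 0.0363 with median-ratio and 0.0816 with quantile scaling and stayed between -0.29 and -0.17 with 1 library left out. Genes without overlap numbered 1297 lower and 1184 higher in flutamide with median-ratio scaling, an alternative chosen after seeing the data. The muscle interaction called 3 genes with a pseudocount of 0.1 and 0 to 9 with 1 library left out, and its replicate block changed no call. PEC calls were 0 under every alternative run, also with a filter on PEC itself, added after seeing the data. The species interaction called 18 genes, against 5 with a pseudocount of 0.1, 1 with no filter, 9 with quantile scaling, 0 with limma-voom or the replicate block, 628 with array weights, and 0 to 43 with 1 library left out. The difference in listed genes (-744.8 to -456.8 with 1 library left out) and that in the share of the 20 most abundant genes (2.92 to 7.18 percentage points) kept their direction. The cause of these changes was not tested. Low read numbers limit the genes under 2 RPKM.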
